A study of Mus musculus with 2 samples.

Results

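Histamine synthesis and histamine receptors were examined through 4 genes, Hdc, Hrh1, Hrh2 and Hrh3, among the 32285 gene rows of 2 single-nucleus count matrices of the mouse thalamus. The genes were selected by their rows in both matrices, and the set had been chosen with results of these data known, among them the level of Hdc in GABAergic nuclei of the injury library, so the levels below are a description without a test. Nuclei came from C57BL/6J female mice given a sham operation or a cortical ablation injury, a surgical removal of sensory and motor areas of the cortex, at 3 months of age. The ipsilateral thalamus was collected on day 21, and the sources used here name no transgene and no other agent in either group. Each group was 1 library of nuclei pooled from 4 mice that cannot be told apart, so no difference between sham and injury has a replicate check, and the 95% intervals given below reflect counting error alone. After filtering, 16373 sham nuclei (median 7190 UMIs, or unique molecular identifiers) and 21777 injury nuclei (median 6810 UMIs) were available.

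Histamine is made from histidine by histidine decarboxylase, the product of Hdc, which needs pyridoxal phosphate as a cofactor. In the brain it is made by neurons of the tuberomammillary nucleus in the posterior hypothalamus, whose axons reach the thalamus, and by mast cells. The vesicular monoamine transporter (Slc18a2) loads it into vesicles, and after release it is methylated by histamine N-methyltransferase (Hnmt) and the product is oxidised by monoamine oxidase B (Maob). The receptors Hrh1, Hrh2 and Hrh3 couple mainly to Gq, Gs and Gi/o proteins, and Hrh3 is known both as an autoreceptor of histaminergic neurons and as a receptor on other neurons. In thalamic relay neurons, histamine acting through Hrh1 and Hrh2 is known to favour tonic firing.

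In GRCm38, Hdc (ENSMUSG00000027360) lies on the minus strand at chr2:126593667-126619299 and Hrh3 (ENSMUSG00000039059) on the minus strand at chr2:180099465-180104488. Hrh1 (ENSMUSG00000053004) lies on the plus strand at chr6:114397936-114483296 and Hrh2 (ENSMUSG00000034987) on the plus strand at chr13:54192129-54236180. Hdc and Hrh1 overlapped no other annotated gene. Hrh2 overlapped 1 antisense gene, Gm16578 (56 sham and 78 injury UMIs), and Hrh3 overlapped Gm17180 (31 and 19 UMIs), and whether counting used the strand is not given in the sources used here.

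The 31 clusters were built without the 4 genes. They comprised 19 glutamatergic clusters with 12029 sham and 13262 injury nuclei, 3 GABAergic clusters with 1973 and 3680 nuclei, and oligodendrocytes, oligodendrocyte precursors, astrocytes and microglia. A further 4 clusters in which over 50% of nuclei were called doublets were set apart as mixed, and 1 cluster with few UMIs was left unnamed. Some neuron clusters were found almost wholly in 1 library. In 3 neuron clusters with under 50 sham nuclei, 4 nuclei were from sham and 938 from injury, with cortical and dentate gyrus genes (Neurod6, Dsp) among the leading genes of 2 of them. Dissection and treatment cannot be told apart as the source of such clusters. A barcode sequence occurred in both libraries 101 times, and no nucleus with 2 or more Hdc UMIs had one of them.

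Hdc was the scarcest of the 4 genes by count and was concentrated in a handful of nuclei. The sham library held 35 Hdc UMIs in 17 nuclei and the injury library 121 UMIs in 43 nuclei, or 0.255 (interval 0.177 to 0.354) and 0.676 (0.561 to 0.808) CPM, the UMIs of a gene scaled to a total of 1000000. Of the 156 UMIs, 92 (59.0%) were in 6 nuclei with 8 or more UMIs each. The intervals take each UMI as a separate count, so they leave out the sampling of such nuclei. Another 6 nuclei held 2 to 4 UMIs, and 15 sham and 33 injury nuclei held a single UMI. The step from 8 UMIs to 4 UMIs parts the first from the second set of nuclei and was drawn after the values were seen.

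The 6 nuclei with 8 or more Hdc UMIs carried the genes of tuberomammillary neurons. In the injury library, 5 such nuclei held 25, 16, 16, 11 and 8 Hdc UMIs, and all were in the GABAergic class. In the sham library, 1 such nucleus held 16 Hdc UMIs among 23572 UMIs. Slc18a2 was found in all 6 nuclei (4 to 13 UMIs), as were Maob (1 to 7 UMIs), the Wnt inhibitor Wif1 (1 to 6 UMIs) and the orexin receptor Hcrtr2 (2 to 26 UMIs), and the intermediate filament gene Prph was found in 5 of 6. Hnmt, the sixth gene of the tuberomammillary list, was at 0 in all 6. Among GABAergic nuclei without an Hdc UMI, 14.0% held a UMI of Slc18a2, 9.83% of Hcrtr2, 1.78% of Maob, 0.604% of Wif1 and 0.160% of Prph.

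**Figure D1:**
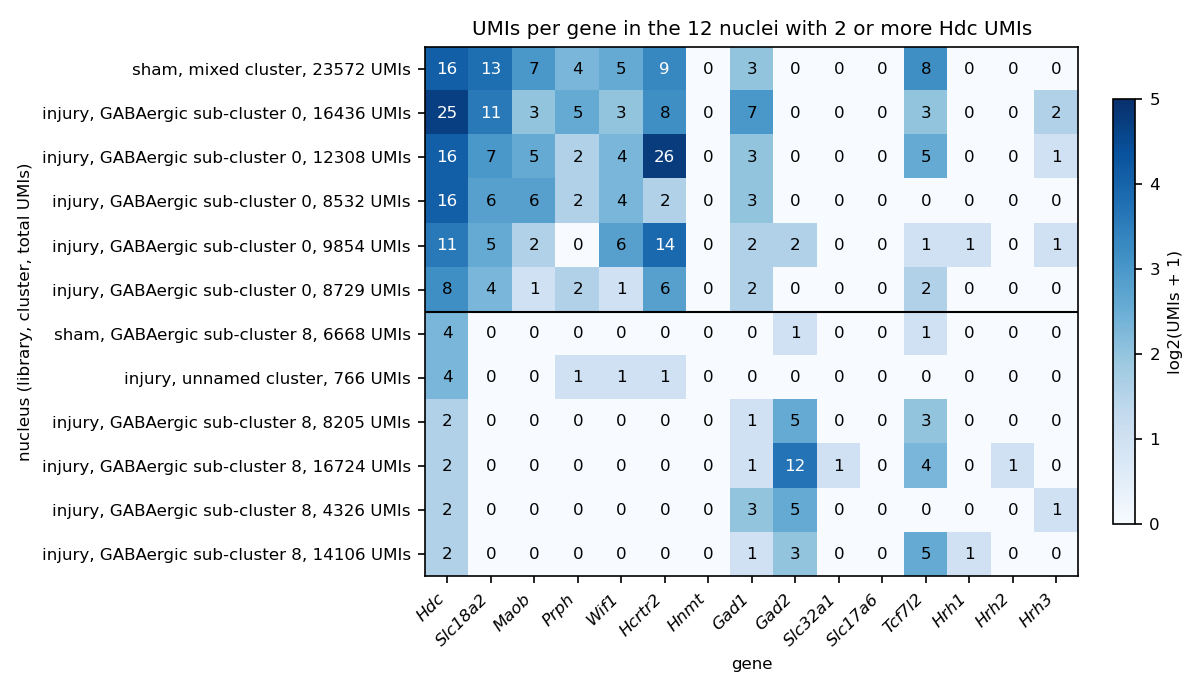
UMIs of 15 genes (columns) in each of the 12 nuclei with 2 or more Hdc UMIs (rows, with library, cluster and total UMIs), shaded by log2(UMIs + 1). The line parts the 6 nuclei with 8 or more Hdc UMIs, which hold Slc18a2, Maob, Wif1 and Hcrtr2, from the other 6, of which 5 hold none of them.

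The combination of these genes was rare in nuclei without an Hdc UMI. At least 4 of the 6 tuberomammillary genes were found in all 6 nuclei with 8 or more Hdc UMIs. Among GABAergic nuclei without an Hdc UMI this held for 1 of 1969 sham and 1 of 3664 injury nuclei. Over all nuclei without an Hdc UMI it held for 14 of 16356 sham and 17 of 21734 injury nuclei, and 11 and 17 of these also held Slc17a6, the vesicular glutamate transporter of thalamic neurons. No nucleus with 8 or more Hdc UMIs held a UMI of Slc17a6 or Slc17a7. These 6 nuclei held 8532 to 23572 UMIs each, above the GABAergic medians of 6294 (sham) and 6559 (injury). The part of this depth in finding at least 4 genes was not tested.

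The GABAergic identity of these nuclei rested on Gad1 alone. Gad1, a glutamate decarboxylase, was present in all 6 nuclei with 2 to 7 UMIs each. Gad2, the second glutamate decarboxylase, was found in 1 of them with 2 UMIs, and the vesicular GABA transporter Slc32a1 was at 0 in all 6. Among GABAergic nuclei without an Hdc UMI, 57.7% held a Gad1 UMI, 77.3% a Gad2 UMI and 15.6% a Slc32a1 UMI.

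Of the regional marker lists, the tuberomammillary list stood furthest above its level in the other GABAergic nuclei, the relay list was also higher, and the reticular and prethalamic lists were at 0. The lists were chosen with earlier results of these data known. Prph, Wif1 and Maob are also among the genes with the largest fold in nuclei with Hdc, so this order is a description. The summed level of the 6 tuberomammillary genes was 1604 to 3575 CPM in single nuclei, against 69.8 CPM over the GABAergic nuclei without Hdc. Single nuclei of the latter set had a median of 0 and reached 1848 CPM, so the ranges of single nuclei overlapped. The 6 genes of the reticular thalamic nucleus and the 7 genes of the zona incerta and ventral lateral geniculate were all at 0, where the other GABAergic nuclei held 892 and 74.1 CPM. The median of single nuclei in that comparison set was 311 CPM for the reticular list and 0 for the prethalamic list, so a 0 of the latter is common. Of the 6 thalamic and midbrain GABAergic factors, only Gata2 was found, with 1 UMI. The 16 hypothalamic genes summed to 138 CPM, against 71.8 CPM, and 3 of them were found: Agrp with 8 UMIs in 6 nuclei, the homeobox gene Bsx with 2 UMIs and Rax with 1 UMI. Agrp was also found in 32.8% of the other GABAergic nuclei, so it marks no region here. The 6 relay genes summed to 1070 CPM, against 191 CPM in the other GABAergic nuclei, with Necab1 at 516 against 64.5 CPM, Lef1 at 290 against 13.4 CPM and Tcf7l2 at 239 against 81.8 CPM. The 6 genes of cortical and hippocampal interneurons stood at 906 against 741 CPM, mostly from Adarb2 (894 against 716 CPM), and the 3 dentate gyrus genes at 50.4 against 30.4 CPM.

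Markers of mast cells, the other source of histamine, were at or near 0. Of 9 mast cell genes, Hpgds gave 1 UMI in 1 of the 6 nuclei, and Cpa3, Kit, Tpsb2, Mcpt4, Cma1, Fcer1a, Ms4a2 and Mrgprb2 were at 0. The 3 basophil genes were at 0. Neuronal genes were present, with 103 UMIs of Snap25 and 265 UMIs of Syt1 over the 6 nuclei. Of the mural cell genes, Pdgfrb gave 14 UMIs in 4 of the 6 nuclei (176 against 3.20 CPM in the other GABAergic nuclei), and the other 3 were at 0.

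**Figure D2:**
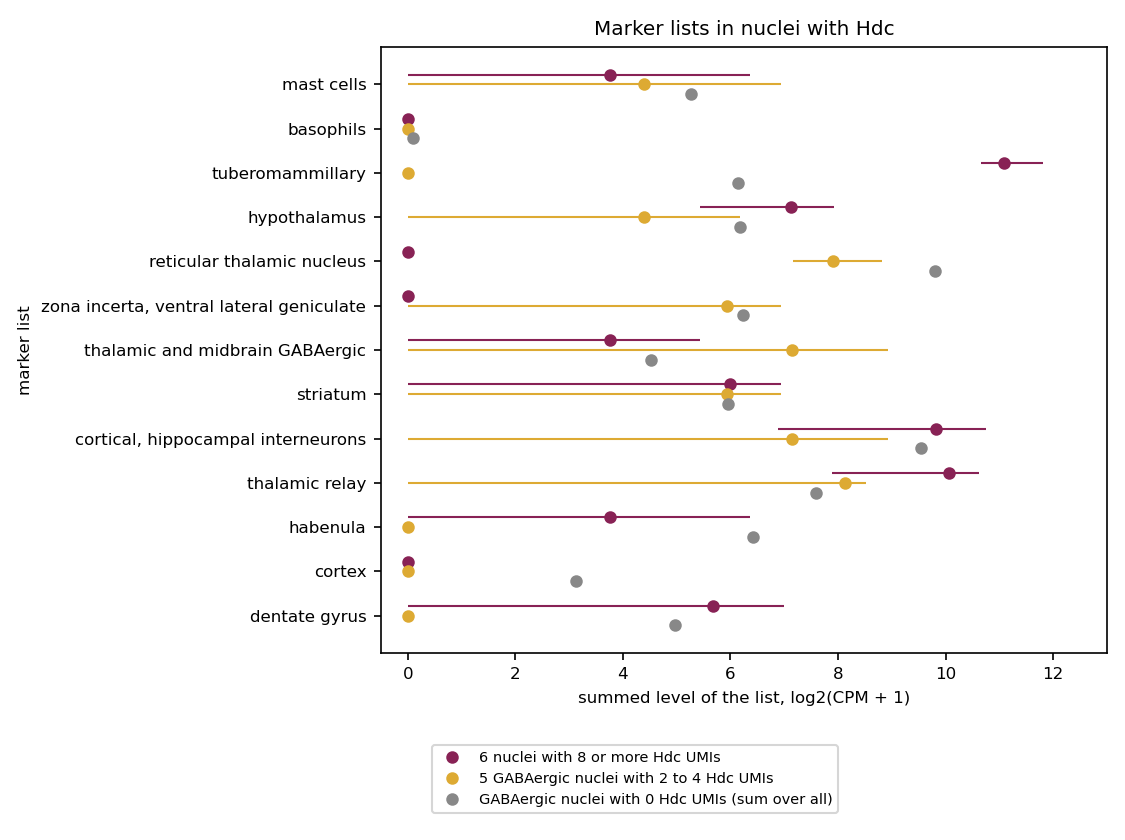
Summed level of each marker list, log2(CPM + 1). The sets are the 6 nuclei with 8 or more Hdc UMIs, the 5 GABAergic nuclei with 2 to 4, and GABAergic nuclei with none. Lines span the lowest to the highest single nucleus in the first and second sets. The third set is shown as the level over all its nuclei, without a line. The tuberomammillary list reached 1604 to 3575 CPM in the first set and 0 in the second, and the reticular list was at 0 in the first.

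The sham nucleus with 16 Hdc UMIs was called a doublet and lay in a mixed cluster, so it entered no class. Its tuberomammillary genes (Slc18a2 13, Maob 7, Prph 4, Wif1 5 and Hcrtr2 9 UMIs) had raw counts near those of the injury nuclei, and Slc17a6 and Slc17a7 were at 0. Its total of 23572 UMIs was larger than theirs (8532 to 16436 UMIs), so these raw counts overstate its level beside them. The injury nucleus with 25 Hdc UMIs was also called a doublet, and the other 4 were not. One more injury nucleus, with 4 Hdc UMIs among only 766 UMIs in the unnamed cluster, held 1 UMI each of Prph, Wif1 and Hcrtr2. Nuclei with this gene combination therefore occurred in both libraries.

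The 10 genes with the largest fold in the 9 GABAergic injury nuclei with 2 or more Hdc UMIs, over GABAergic nuclei without, were, among those 9, found almost wholly in the nuclei with 8 or more. They were Prph, Gfral, Wif1, Gm31614, Calcrl, 2900052N01Rik, Maob, Egflam, Npl and Il6ra, with folds from 386 for Prph (111 against 0.288 CPM) down to 36.2 for Il6ra. Each was found in 3 to 5 of the 5 nuclei with 8 or more Hdc UMIs. In the 4 nuclei with 2 UMIs, 9 of the 10 genes were at 0, and Calcrl, a receptor of the calcitonin family, was found in 1. The genes were chosen by their fold in these same 9 nuclei, among genes found in a minimum share of them. For a gene at 0 in the 4 nuclei, presence in at least 3 of the 5 follows from that choice. The split between the 5 and the 4 nuclei is therefore a description and no separate result. In the sham nucleus with 16 Hdc UMIs, 8 of the 10 were also present, all but Gfral, the GDF15 receptor, and Gm31614.

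A second, low level of Hdc was found in another group of GABAergic nuclei in both libraries. When the GABAergic nuclei were clustered again on their own, a choice made after the data were seen, 19 sub-clusters resulted. The 5 injury nuclei with 8 or more Hdc UMIs fell in sub-cluster 0 (with Sox6 among the leading 10 genes). Over that sub-cluster the hypothalamic genes Nkx2-1, Six6 and Bsx stood above the other GABAergic nuclei. Their levels were 4.05 against 0.906, 1.94 against 0 and 1.58 against 0.0275 CPM. The reticular genes Meis2 (104 against 535 CPM) and Pvalb (0.704 against 27.8 CPM) stood below the other GABAergic nuclei. These genes are single members picked from lists of 16 hypothalamic and 6 reticular genes. The other members are not given here for sub-cluster 0, so these levels name no region for it. Six6 and Bsx rest on few UMIs, with 11 and 8 over all GABAergic nuclei without an Hdc UMI. In the 6 nuclei with 8 or more Hdc UMIs, Nkx2-1 and Six6 were at 0 and Bsx gave 2 UMIs. All 5 GABAergic nuclei with 2 to 4 UMIs, 1 sham and 4 injury, fell in sub-cluster 8 (leading genes Ttn and Ccdc141, with Otx2os1, Satb1 and Tcf7l2 among the leading 10). Sub-cluster 8 held 116 sham and 129 injury nuclei, of which 18.8% were called doublets.

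The sham and injury intervals of Hdc in sub-cluster 8 overlapped. Sham nuclei held 5 Hdc UMIs in 2 nuclei, or 5.80 CPM (1.88 to 13.5), and injury nuclei 9 UMIs in 5 nuclei, or 7.74 CPM (3.54 to 14.7), and the log2 ratio was 0.42 (−1.32 to 2.34). Outside sub-clusters 0 and 8, the 10 sub-clusters with 50 or more nuclei in each library held 0 or 1 Hdc UMI per library. None of the 5 nuclei with 2 to 4 UMIs held a UMI of any of the 6 tuberomammillary genes, and Gad2 was found in all 5 (1 to 12 UMIs). The nucleus level is low, and 2 of the 4 injury nuclei were called doublets.

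Sub-cluster 8 held all 6 factors of the thalamic and midbrain GABAergic list at higher levels than the other GABAergic nuclei, Sox14 and Tal2 on few UMIs. Its level was 46.4 CPM for Gata3, against 7.61 CPM in the other GABAergic nuclei, 31.1 against 3.17 CPM for Tal1, 25.2 against 3.27 CPM for Otx2 and 15.3 against 1.85 CPM for Gata2. These transcription factors are listed here for GABAergic neurons of the thalamus and midbrain together. Sox14 (2.96 against 1.20 CPM) and Tal2 (0.494 against 0.299 CPM) gave 6 UMIs and 1 UMI. In the 5 nuclei with 2 to 4 Hdc UMIs themselves, Gata2 and Gata3 were each found in 2 nuclei and Tal1 in 1, while Otx2, Sox14 and Tal2 were at 0. The reticular genes Six3 (4 of 5 nuclei, 140 against 39.95 CPM) and Ubash3b (5 of 5 nuclei, 99.9 against 325 CPM) were found in them too. Over the whole of sub-cluster 8, Nkx2-2, listed for the prethalamus, was at 18.8 against 1.12 CPM. Tcf7l2 was found in 223 of its 245 nuclei at 506 against 60.8 CPM. Maob (0.494 CPM), Prph (0.494 CPM) and Wif1 (0.988 CPM) gave 1 or 2 UMIs each over the whole sub-cluster.

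The ratio of Hdc between the libraries in the GABAergic class rested on the 5 injury nuclei. The class held 7 Hdc UMIs in sham, or 0.497 CPM (0.200 to 1.02), and 91 in injury, or 3.25 CPM (2.62 to 3.99). The log2 ratio, injury over sham, was 2.71 (1.61 to 4.06). Hdc is thus among the 5.25% of 18063 genes that differed by at least 2-fold in either direction in this class, which is a description, since Hdc was chosen by this contrast. Without nuclei of 8 or more Hdc UMIs the log2 ratio was 0.11, and with a marker gate on each nucleus it was 1.42. With the GABAergic nuclei of the mixed clusters added, which brings in the sham nucleus with 16 UMIs, it was 1.03. Since nuclei with tuberomammillary genes carried the ratio, dissection and treatment cannot be told apart as its source. At least 2 Hdc UMIs were found in 0.0507% (0.00128% to 0.282%) of sham GABAergic nuclei, 1 of 1973, and in 0.245% (0.112% to 0.464%) of injury GABAergic nuclei, 9 of 3680, and these intervals overlap. The interval of the ratio takes each UMI as a separate count, although 76 of the 91 injury UMIs were in 5 nuclei. Over all nuclei, 8 or more Hdc UMIs were found in 1 of 16373 sham nuclei (0.000155% to 0.0340%). In injury this held for 5 of 21777 nuclei (0.00746% to 0.0536%), and these intervals overlap too.

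The sub-cluster that held the nuclei with most Hdc was itself unevenly sampled. Sub-cluster 0 made up 7.45% of sham GABAergic nuclei (147 nuclei) and 22.96% of injury GABAergic nuclei (845 nuclei). The 5 nuclei with 8 or more Hdc UMIs were 0.592% (0.192% to 1.38%) of its injury nuclei. Among its sham nuclei there were 0 of 147, which allows a share of up to 2.04% by the floor of 3 nuclei and 2.48% by the exact interval, so a difference in this share was not detectable at this depth. Fewer cells of a type and less RNA per cell cannot be told apart in the summed counts. With the sub-clusters weighted alike in both libraries the log2 ratio of Hdc was 3.20, within its counting interval.

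**Figure D3:**
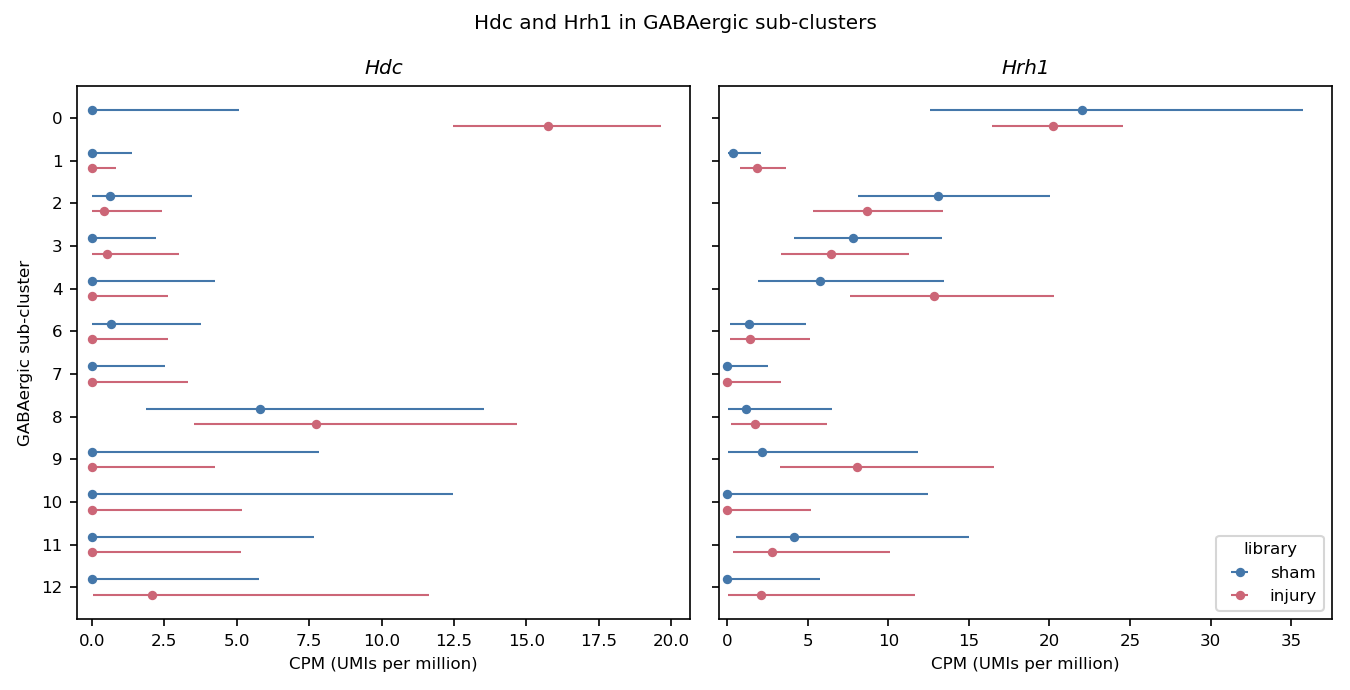
CPM of Hdc (left) and Hrh1 (right) in the 12 GABAergic sub-clusters with 50 or more nuclei in each library, with exact Poisson intervals, for sham and injury. Hdc stands out in sub-cluster 0 of the injury library (15.8 CPM) and in sub-cluster 8 of both libraries (5.80 and 7.74 CPM), and Hrh1 intervals of the libraries overlap in every sub-cluster shown.

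Nuclei with a single Hdc UMI were found in neurons, astrocytes and mixed clusters, and none in oligodendrocytes, their precursors or microglia. Of 15 such sham nuclei 11 were glutamatergic and 3 GABAergic, classes that held 73.5% and 12.1% of all sham nuclei, and of 33 in injury 15 and 7, where the classes held 60.9% and 16.9%. The part of free RNA in single UMIs was not tested, so they are given as counts and not as nuclei that express Hdc. In glutamatergic neurons 11 sham and 15 injury nuclei held 1 UMI each, or 0.101 (0.0504 to 0.181) and 0.121 (0.0674 to 0.199) CPM. In astrocytes 0 of 209 sham nuclei held a UMI, which allows a share of nuclei with a UMI of up to 1.44% (exact bound 1.75%), and 6 of 512 injury nuclei (1.17%, 0.431% to 2.53%) held 1 UMI each, or 4.14 CPM (1.52 to 9.02), in a class of 2.35% of the injury nuclei. Of these 6 nuclei 1 was called a doublet. No Hdc UMI was found in oligodendrocytes, with 0 of 991 sham and 0 of 2302 injury nuclei, which allows shares of nuclei with a UMI of up to 0.303% and 0.130% (exact bounds 0.372% and 0.160%) at median depths of 1539 and 1651 UMIs, shallower than the astrocytes (1892 and 2549 UMIs).

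The receptors were found widely. Library levels were 11.8 and 14.1 CPM for Hrh1, 22.0 and 24.3 CPM for Hrh2 and 18.8 and 19.6 CPM for Hrh3 in sham and injury. At most 7 UMIs of Hrh1, 9 of Hrh2 and 5 of Hrh3 were found in a nucleus. The levels by cluster cover 22 units, 19 neuron clusters and 3 glial classes with 50 or more nuclei in each library. Microglia, with 33 sham nuclei, were not among them.

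Hrh1 was highest in astrocytes. Their level was 119 CPM (89.4 to 155) in sham and 122 CPM (105 to 142) in injury, with a UMI in 23.4% and 24.6% of nuclei at median depths of 1892 and 2549 UMIs. Oligodendrocytes held a UMI in 0.101% and 0.304% of nuclei at 1539 and 1651 UMIs, and 0.585 and 1.88 CPM. The astrocyte log2 ratio was 0.04 (−0.41 to 0.51), in a class where 8.54% of 9410 genes differed by at least 2-fold. Oligodendrocyte precursors stood at 24.9 CPM (13.2 to 42.5) and 23.8 CPM (14.7 to 36.3).

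Among neurons, Hrh1 was highest in glutamatergic cluster 6 (leading genes Glis3 and Fam20a), with 44.3 CPM (40.1 to 48.8) in sham and 49.4 CPM (44.9 to 54.2) in injury. Cluster 17 (Hcrt and Ankfn1) came next in the mean of both libraries with 28.6 and 31.9 CPM, although cluster 27 stood above it in injury (36.8 CPM) and at 0 in sham. The gene of the peptide orexin was a leading gene of cluster 17, which does not name its cells. Its hypothalamic list stood at 107 and 160 CPM, its relay list at 619 and 559 CPM, and 26.5% of its nuclei were called doublets. Cluster 2 (Snx31 and Pth2r) followed in the mean with 24.0 and 29.7 CPM. Cluster 4 (Adgrf5 and Abhd12b), which held the highest level of the 6 thalamic relay markers (2491 and 2392 CPM), had only 1.90 and 2.10 CPM of Hrh1. The relay list was also high in cluster 2 (2240 and 2211 CPM), so 2 clusters with relay markers differed in Hrh1 with intervals that did not overlap in either library. Over both libraries the lowest mean levels were in cluster 14 (Pde11a and Syt6; 0 and 0.391 CPM), cluster 20 (Fgf10 and Adamts19; 0 and 0.612 CPM) and cluster 8 (Chat and Ano1; 0.655 and 0.181 CPM). Clusters 8 and 14 had the highest levels of the 6 habenula markers (9012 and 9423 CPM in cluster 8, 5665 and 5604 CPM in cluster 14), whereas cluster 20 held the relay list at 1991 and 1812 CPM.

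Hrh2 had another order. The highest levels were in cluster 4, with 40.3 CPM (36.9 to 43.9) in sham and 51.5 CPM (47.9 to 55.2) in injury, in GABAergic cluster 10 (Ubash3b and Six3), with 41.0 CPM (34.8 to 47.9) and 43.7 CPM (38.8 to 49.0), and in cluster 24 (Adamtsl3 and Hcrtr2), with 43.1 and 36.1 CPM. GABAergic cluster 10 held the 6 markers of the reticular thalamic nucleus at 2131 and 2176 CPM, against 415 and 355 CPM in GABAergic cluster 1. Cluster 6, first for Hrh1 among neurons, had 11.1 and 12.01 CPM of Hrh2. The habenula-marked clusters 8 (1.96 and 3.61 CPM) and 14 (2.88 and 0.782 CPM) were low again, as were astrocytes (0 and 2.07 CPM) and oligodendrocytes (1.75 and 2.35 CPM). Cluster 9 (Ptprq and Kcnh8), also high in the habenula list (1899 and 2082 CPM), held more Hrh2, at 11.4 and 14.5 CPM. Clusters 15 (2.65 and 2.19 CPM) and 22 (2.35 and 2.81 CPM) were similarly low in Hrh2. Their habenula list stood at only 25.3 and 17.5 CPM in cluster 15 and 84.6 and 87.6 CPM in cluster 22. In microglia 4 UMIs in 33 sham nuclei and 10 in 167 injury nuclei gave 48.9 CPM (13.3 to 125) and 29.6 CPM (14.2 to 54.4).

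Hrh3 was highest in cluster 6 (32.3 CPM, 28.8 to 36.2, in sham and 39.0 CPM, 35.1 to 43.3, in injury), followed, in the mean of both libraries, by cluster 2 (30.3 and 32.3 CPM) and cluster 4 (26.6 and 31.7 CPM). The lowest neuronal levels were again in cluster 8 (0.655 and 2.35 CPM), cluster 14 (2.06 and 2.35 CPM) and, in sham, cluster 27 (Ebf2 and Postn; 0 CPM). Oligodendrocytes held 8.19 CPM (4.48 to 13.7) and 7.53 CPM (5.15 to 10.6), with a UMI in 1.41% and 1.35% of nuclei. In the 6 nuclei with 8 or more Hdc UMIs, Hrh3, the autoreceptor, gave 4 UMIs in 3 nuclei, or 50.4 CPM (13.7 to 129), Hrh1 gave 1 UMI and Hrh2 none.

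**Figure D4:**
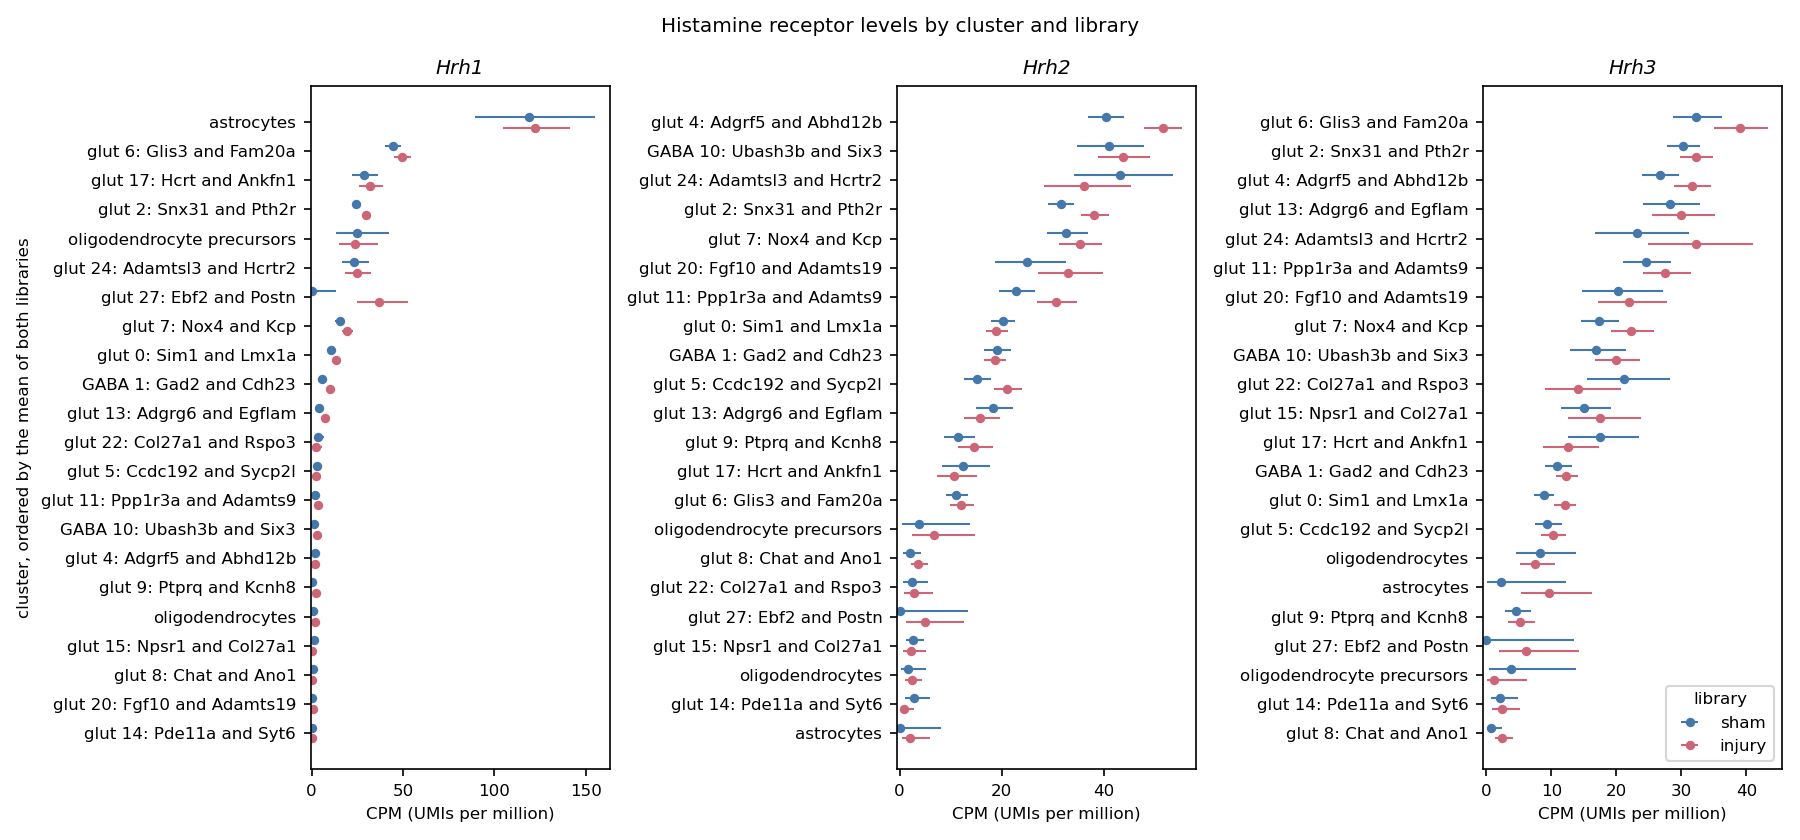
CPM of Hrh1, Hrh2 and Hrh3 (panels, with different scales) by cluster and library with exact Poisson intervals; clusters are ordered within each panel by the mean of sham and injury. Astrocytes lead for Hrh1 at 119 and 122 CPM, cluster 4 and GABAergic cluster 10 for Hrh2 and cluster 6 for Hrh3, and clusters 8 and 14 are near the bottom of all 3 panels.

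Neighbours in these orders mostly could not be told apart. Of the 21 neighbouring pairs, the intervals overlapped in 17 (sham) and 18 (injury) for Hrh1, in 20 and 20 for Hrh2 and in 21 and 20 for Hrh3, while the ends of each order did not overlap. Over the 38 units of neuron clusters and libraries, log2(CPM + 1) of Hrh2 and Hrh3 had a Pearson correlation of 0.70, Hrh1 and Hrh3 of 0.51 and Hrh1 and Hrh2 of 0.39. These are descriptions over units that share 2 libraries and differ in depth.

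The GABAergic nuclei differed among themselves in the receptors. Hrh2 ranged from 6.23 to 44.2 CPM in sham over the 12 sub-clusters with 50 or more nuclei in each library, and was highest in sub-cluster 1 (Colq and Fam163a, with Pvalb), at 44.2 CPM (36.6 to 53.0) and 50.1 CPM (43.7 to 57.2). The same sub-cluster had 0.375 and 1.83 CPM of Hrh1. Hrh1 was highest in sub-cluster 0, at 22.0 CPM (12.6 to 35.8) in sham and 20.2 CPM (16.4 to 24.6) in injury. Hrh3 ranged from 7.48 to 20.8 CPM in sham and from 8.65 to 26.7 CPM in injury.

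Between sham and injury, Hrh1 in the GABAergic class was at 4.69 CPM (3.62 to 5.96) and 9.49 CPM (8.39 to 10.7), and its log2 ratio was 1.02 (0.62 to 1.43). The sub-clusters with high Hrh1 took a larger share of the injury nuclei. Sub-cluster 0, with the highest Hrh1, was 7.45% of sham and 22.96% of injury GABAergic nuclei, and sub-cluster 5 (Ano2 and Myo5b; 18.9 CPM of Hrh1) held 0 sham and 389 injury nuclei. With the 12 shared sub-clusters weighted alike in both libraries the log2 ratio was 0.041, and in the 9 of them with Hrh1 UMIs in both libraries no interval excluded 0. With equal weight for each of the clusters it was 0.85 and without clusters of under 50 nuclei in a library 0.79, both within the counting interval. Hrh2 (24.9 and 24.0 CPM, log2 ratio −0.06, −0.25 to 0.13) and Hrh3 (12.5 and 13.6 CPM, 0.12, −0.14 to 0.38) had intervals that included 0. In this class 2 of the 4 genes, Hdc and Hrh1, passed 2-fold, beside the 5.25% of all genes. Hrh1 did so narrowly, and stood below 2-fold with 6 of 9 other ways of scaling, filtering, clustering or weighting (log2 ratios of 0.54 to 0.99).

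In glutamatergic neurons none of the 4 genes reached 2-fold, where 2.97% of 21951 genes did. Hrh1 was at 12.4 and 13.9 CPM (log2 ratio 0.16, 0.06 to 0.27), Hrh2 at 22.3 and 25.3 CPM (0.18, 0.10 to 0.26) and Hrh3 at 19.95 and 21.3 CPM (0.10, 0.01 to 0.18), against a median of 0.01 over all genes. The receptor ratios were small but lay on the same side, except that Hrh3 was at −0.12 with nuclei thinned to 2000 UMIs. Of the 17 glutamatergic clusters, those with UMIs in both libraries gave ratios with intervals above 0 in 4 of 14 for Hrh1, 4 of 16 for Hrh2 and 4 of 16 for Hrh3, and none had one below. Over all genes and the same clusters, 7.01% of 313990 such ratios had an interval above 0 and 7.63% one below, where ratios on fewer UMIs have wider intervals. Examples are Hrh2 in cluster 4 (40.3 and 51.5 CPM, log2 ratio 0.35, 0.19 to 0.51), Hrh2 in cluster 11 (Ppp1r3a and Adamts9; 22.8 and 30.7 CPM, 0.43, 0.14 to 0.72) and Hrh3 in cluster 0 (Sim1 and Lmx1a; 8.81 and 12.04 CPM, 0.45, 0.12 to 0.78). These ratios have no replicate check, and no adjustment was made for their number.

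Cluster 27 stood apart. Its 71 sham nuclei held no UMI of any receptor, at a median of 3627 UMIs, while its 176 injury nuclei held 30 UMIs of Hrh1, or 36.8 CPM (24.8 to 52.5), 4 of Hrh2 and 5 of Hrh3. Against a floor of 3 UMIs in the sham nuclei, Hrh1 was at least 3.35-fold higher in injury by its point level. This fold leaves out the counting error of the injury sum, so it is no lower bound of the change. The exact upper bound of the sham level, 13.5 CPM, lay below the injury interval. For Hrh2 and Hrh3 the sham floor lay above the injury level.

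**Figure D5:**
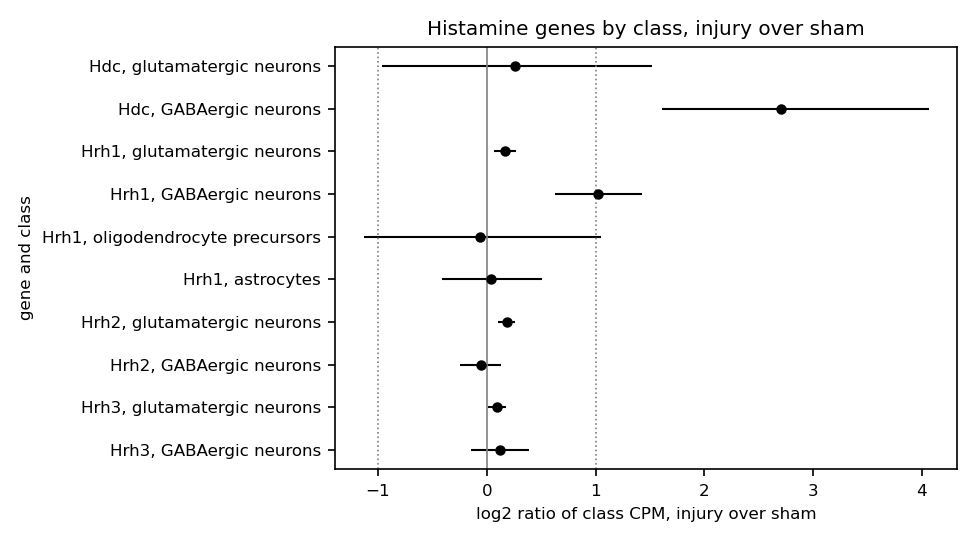
Log2 ratio of class CPM, injury over sham, with exact intervals, for each of the 4 genes in neurons, astrocytes and oligodendrocyte precursors where both libraries together held 20 or more UMIs; dotted lines mark 2-fold. Hdc (2.71) and Hrh1 (1.02) in GABAergic neurons lie past 2-fold, and the glutamatergic ratios lie between 0 and 0.26.

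The genes that store and clear histamine were examined in the same classes. In GABAergic neurons Slc18a2 was at 22.7 and 31.1 CPM (log2 ratio 0.46) and Maob at 1.92 and 3.85 CPM (1.01), and without nuclei of 8 or more Hdc UMIs the log2 ratios were 0.40 and 0.76. Hnmt was at 14.9 and 13.2 CPM in GABAergic and 8.64 and 8.44 CPM in glutamatergic neurons. By cluster, Maob was highest in astrocytes (117 and 107 CPM) and cluster 6 (107 and 112 CPM), the same 2 units in which Hrh1 was highest, and lowest in GABAergic cluster 10 (1.58 and 1.33 CPM). The organic cation transporter Slc22a3, which takes up histamine, was highest in GABAergic cluster 10 (30.4 and 22.95 CPM) and had 0 UMIs in cluster 8 in both libraries.

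Of the 38 other genes of the pathway, 31 had 20 or more UMIs in GABAergic neurons, and 2 of them (Maob and the phospholipase gene Plcb2) were at least 2-fold higher and none lower, where 5.25% of all genes differed by 2-fold, with a median log2 ratio of −0.05 beside −0.01 for all genes. In glutamatergic neurons 35 had enough UMIs, none was at least 2-fold higher and 1, the cation transporter Slc22a2 (25 sham and 12 injury UMIs), was lower, where 2.97% of all genes differed, with a median of 0.04 beside 0.01. The 21 genes of G proteins and effectors had a median of 0.01 in GABAergic and 0.14 in glutamatergic neurons. Hrh4, the receptor of immune cells, had 15 sham and 7 injury UMIs, too few for a comparison.

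By their levels over the 44 units of clusters and libraries, the genes most like each receptor were described by Pearson correlation of log2(CPM + 1). For Hrh1 they were Gpc5 (0.86), 4930505G20Rik, Gm20713, Ak4 and Gm11837, and 4930505G20Rik and Gm20713 lie inside Gpc5 on the opposite strand of chromosome 14. For Hrh2 they were Gm48006 (0.86), Gm48003, Fam205c, Gm48004 and Hspa12a, and for Hrh3 Dym (0.88), Gpr12, Dysf, Gm14169 and Gm11906. For Hdc the highest values (Arhgap40, 0.70, then Mecom, Gm2061, Sfta3-ps and Serpina3n) rest on few counts, since Hdc was at 0 in 31 of the 44 units.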

How the data were processed

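Nuclei from frozen thalamus were sorted, and 3′ libraries were counted by the authors with Cell Ranger 6.0.2 against GRCm38; the deposited values are raw UMI counts per gene and barcode, without normalization. Whether intronic reads were counted is not given in the sources used here. Nuclei with over 2% mitochondrial UMIs, under 200 or over 7500 genes were left out, as the study's methods state, and doublets were kept. Scrublet (scanpy 1.11.5) called 13.4% of sham and 17.5% of injury nuclei doublets, a share set by a rate of 0.8% per 1000 nuclei. Anchor integration of both libraries (Seurat 5.3.0, R 4.3.3) used 1998 variable genes, members left out, and nuclei were clustered with 30 components at a resolution of 0.5; GABAergic nuclei were then clustered again. Classes came from marker lists, with thresholds set after seeing the data, so names are rebuilt and may differ from the study's. UMIs were summed per class or cluster and divided by its total (CPM). Intervals were exact Poisson for sums and Clopper-Pearson for shares and ratios; neither is a test between groups, and the interval code was checked on simulated counts. At 0 UMIs a floor of 3 UMIs per library was used. Comparisons at 2-fold used genes with at least 20 UMIs over both libraries. Named were all 4 members, the pathway list, the marker lists, the 5 genes most like each member over units (at least 200 UMIs) and the 10 genes with the largest fold in GABAergic injury nuclei with 2 or more Hdc UMIs, among genes found in at least 25% of them. The members and lists were chosen with earlier results of these data known. Gene symbols came from GENCODE M21 for 32158 rows. Alternatives covered scaling, doublets, clustering, a marker gate, weights and thinning. No sequence is shown, since the data do not bear on one.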

Additional observations from a re-analysis of the deposited data

Results flagged for a closer look

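Hdc was also found in nuclei that entered no class, above the floor of 3 UMIs. In the sham library these nuclei, 995 in the mixed and unnamed clusters, held 17 Hdc UMIs, of which 16 were in the single nucleus with tuberomammillary genes described above. In the injury library 1634 such nuclei held 9 Hdc UMIs, 5 in the mixed clusters and 4 in the nucleus of 766 UMIs in the unnamed cluster. The sham library thus held more Hdc UMIs outside the classes than in its GABAergic class, which held 7. How doublet calls came to place the sham nucleus in a mixed cluster was not tested.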

How the results depend on the processing

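Of 72 alternatives to the ratios, 63 stayed within the counting interval of the value in the report, as did all 14 for the shares of nuclei with 2 or more Hdc UMIs. The share intervals are wide, so staying within them says little. The sham share of 0.0507% (0.00128% to 0.282%) was 0.203% with nuclei of at least 1 UMI. The log2 ratio of Hdc in GABAergic neurons was 1.42 with a marker gate on each nucleus. Alternatives chosen after seeing the data gave 1.03 with the gated GABAergic nuclei of the mixed clusters added and 0.11 without nuclei of 8 or more Hdc UMIs. With sub-clusters weighted alike, also chosen after seeing the data, Hrh1 in GABAergic neurons was 0.041 and Hrh2 was 0.19. Hrh1 in GABAergic neurons was 0.54 with nuclei thinned to 2000 UMIs. With equal weight for each cluster, Hrh1 in glutamatergic neurons was 0.48 and Hrh3 was 0.18. Hrh3 in glutamatergic neurons changed sign when nuclei were thinned to 2000 UMIs, to −0.12. The cause was not tested. Of 44 levels by cluster and library, 9 for Hrh1, 1 for Hrh2 and 3 for Hrh3 left their interval without called doublets, and 1, 1 and 5 with the mean of the CPM of single nuclei. Without called doublets Hrh1 in cluster 13 was 1.96 and 3.48 CPM, against 3.83 and 7.40 CPM. Thinning left out 60 sham and 99 injury GABAergic nuclei. No paired analysis was possible because sham and injury were 1 library each. Leaving out a replicate was not possible for the same reason. Counts of 1 to 5 UMIs per nucleus limit what can be said of single nuclei, and the spread between mice is unknown.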
